A study of Mus musculus with 16 samples.

Results

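White adipose tissue of mice that lack the glucocorticoid receptor in adipose tissue was compared with white adipose tissue of control mice. The members are the 4 arrays labelled AdipoKO_WAT-1 to 4 and the 4 labelled CTL_WAT-1 to 4, chosen by those titles, which are 8 of the 16 arrays of the study. All mice were male, the controls are described as wild type, and no treatment is given in the labels for either genotype. The labels do not name the promoter that drove the deletion, the deleted exon, the fat depot or the age of the mice. The other 8 arrays hold brown adipose tissue of the same genotypes and served only to estimate the spread of each gene.

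The glucocorticoid receptor, encoded by Nr3c1, is a nuclear receptor that binds corticosterone, enters the nucleus and regulates transcription at glucocorticoid response elements or through contacts with other transcription factors. In white fat it is known for supporting adipocyte differentiation, for acting with insulin on lipid storage and for promoting lipolysis during fasting. The enzyme 11-beta-hydroxysteroid dehydrogenase type 1, encoded by Hsd11b1, regenerates active glucocorticoid from its inactive form inside adipocytes.

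Some arrays of a group differed by less than the measurement error. Of the 12 pairs of arrays within the white groups, 5 differed by less than the error that the scanner software assigns to each spot, and at most 14 of 9876 bright probes were more than 2-fold apart in such a pair. In the other 7 pairs the number was 266 to 2818. Arrays that differed by less than the scanner error were averaged and counted as 1 sample. This left control sample A (arrays 1 and 4), control sample B (arrays 2 and 3), knockout sample A (array 1) and knockout sample B (arrays 2, 3 and 4). The main test therefore compares 2 control with 2 knockout samples. The labels call all arrays biological replicates. In the main fit, SE and p-values measure only the spread between distinct samples, pooled over the white and brown groups. Values are given in the order A, B, as log2 signal relative to the 75th percentile of the array's intensities, so that 0 is that percentile and a difference of 1 is 2-fold. Between 67.3% and 74.0% of the spots of a white array were well above background, and no spot was saturated. A gene was tested if its probe passed that background call on each array of at least 1 white group, which kept 14697 of the 19096 genes named on the array. Of these, 735 passed through the control arrays alone and 226 through the knockout arrays alone.

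Nr3c1 was lower on the knockout arrays. Its brightest probe lay at 2.43, 2.01, 2.27 and 2.42 on control arrays 1 to 4. On knockout arrays 1 to 4 it lay at 1.5, 1.24, 1.23 and 1.34, so the groups did not overlap. The difference between the sample means was -0.9 ± 0.22 (SE, 2 against 2 samples), which left 53.8% of the control signal. It did not pass limma, a moderated linear model fitted to all genes (adjusted p = 0.361, Benjamini-Hochberg). Within the slide that carried both groups the difference was -0.98. Without knockout sample A it was -1.01 and passed limma (adjusted p = 0.0475), and over all alternatives tried the limma adjusted p ranged from 0.000164 to 0.999. The other 3 probes of the gene differed by -1.11, -0.99 and -0.24, and on the probe with the smallest difference the control and knockout arrays overlapped. Where the probes lie relative to the deleted exon was not tested. In RNA from whole tissue, fewer cells with a transcript and less transcript per cell cannot be told apart.

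**Figure D1:**
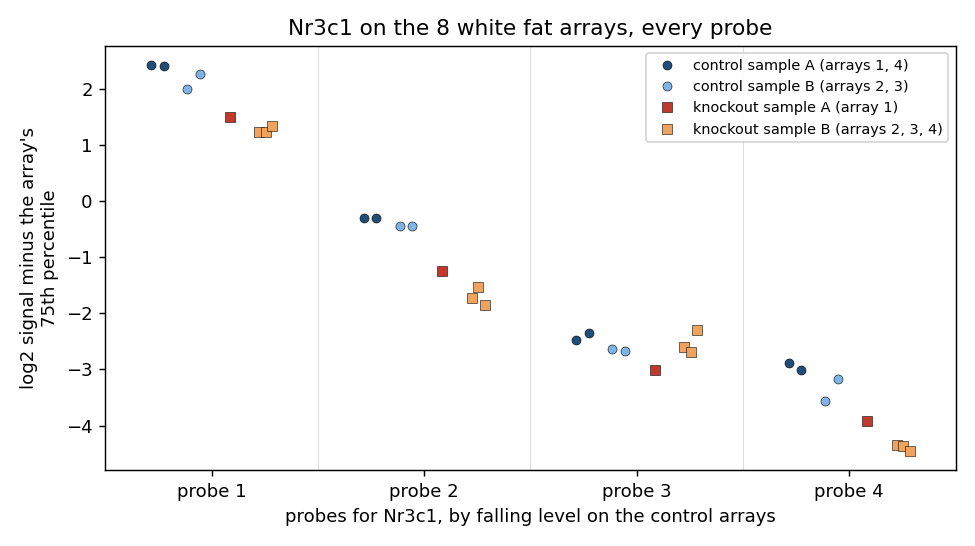
Signal of the 4 Nr3c1 probes on each white fat array, as log2 with the array's 75th percentile at 0; circles are control arrays and squares knockout arrays, coloured by distinct sample. For the brightest probe the knockout arrays lie at 1.23 to 1.5 and the control arrays at 2.01 to 2.43, and the groups overlap only for the probe with the difference of -0.24.

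No gene passed limma at an adjusted p of 0.05 (0 of 14697, percent called 0.0%), and the smallest adjusted p was 0.176. At an unadjusted limma p under 0.05 there were 549 genes higher (3.74%) and 1023 lower (6.96%), together 10.7% of the genes tested. The knockout samples differed more from one another than the control samples did. The median absolute difference between them was 0.68 on the log2 scale, against 0.2 between the control samples and 0.4 between knockout and control means. The knockout samples were at least 2-fold apart for 5203 genes (35.4%) and the control samples for 816 (5.55%), and for 6699 genes (45.6%) the knockout samples lay on opposite sides of the control mean. Knockout sample A was at least 2-fold lower than the control mean for 4.16% of genes and higher for 6.13%, and knockout sample B for 19.9% and 14.5%. Without knockout sample A the number of genes that passed limma was 2102 (14.3%), 648 higher and 1454 lower. Without knockout sample B it was 112 (0.762%), 101 higher and 11 lower. In these fits the remaining knockout sample is assumed to vary like the other groups. Among genes that passed in both, arrays that did not overlap between the groups were about as frequent as among all genes (30.7%). With all arrays kept and the distinct sample as a random block 100 genes passed limma (0.68%), 25 higher and 75 lower. That fit counts repeat arrays and has 12 residual degrees of freedom, against 5 in the main fit. A gene that passes in it therefore has weaker support than a pass in the main fit would give. With the slide as a block and repeat arrays taken as separate samples 253 passed (1.72%). Within the slide that carried both groups 0 did.

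The arrays can also be described without a test. In 4510 genes (30.7%) the 4 knockout arrays lay beyond the 4 control arrays, above them in 1673 (11.4%) and below them in 2837 (19.3%). Genes for which both knockout samples were also at least 2-fold from the control mean numbered 427 (2.91%), 198 above (1.35%) and 229 below (1.56%). The split of genes beyond control depended on scaling. With the 75th percentile as reference 37.1% of them were higher, with the median 25.3%, and in the authors' table without scaling 13.0%. The median difference of all genes was -0.05, -0.13 and -0.24 under these 3 scalings.

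The 12 widest gaps below control, measured between the nearest arrays of the 2 groups, included detoxifying enzymes and enzymes of lipid synthesis. Gsta3, a glutathione transferase of the alpha class that also isomerises steroid intermediates, lay at 5.69 and 4.91 in the control samples and at 2.21 and 0.83 in the knockout samples. That is 13.7-fold lower (-3.78 ± 0.46 SE, limma adjusted p 0.199). Its relative Gsta1 lay at 0.78 and -0.09 against -3.0 and -4.02, 14.5-fold lower (-3.86 ± 0.4, limma adjusted p 0.176). Both genes were low in both knockout samples, with 2.66 and 2.82 log2 units between the nearest control and knockout arrays, and Gsta1 has a close copy, Gsta2, whose signal its probe may share. Mest, an imprinted gene linked to the enlargement of fat cells, lay at 3.66 and 3.35 against 0.82 and -0.11 (-3.15 ± 0.61, limma adjusted p 0.25). Pdzk1ip1, which encodes a small membrane protein, lay at 1.02 and 1.15 against -1.36 and -1.3 and was 5.31-fold lower. Mtarc1, which encodes a mitochondrial amidoxime reductase, lay at 4.86 and 4.97 against 2.71 and 2.73. In these last 2 genes the samples of a group nearly coincided. Tinag (-3.28 ± 0.48), the neurotensin receptor gene Ntsr2 (-2.54 ± 0.36), Alb, which encodes serum albumin (-3.19 ± 1.27), and the ciliary gene Tekt1 (-2.19 ± 0.35) were also among the 12. G6pd2 (-2.66 ± 0.5) is a retrogene of G6pdx, so its signal may include that of G6pdx. Elovl6 and Acss2 are given with fatty acid synthesis.

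Of the 12 widest gaps above control, the largest fold was that of Grem1, which encodes a secreted antagonist of bone morphogenetic proteins. Grem1 lay at -3.41 and -2.02 in the control samples and at 2.87 and 0.85 in the knockout samples, 23.8-fold higher (4.57 ± 1.27 SE, limma adjusted p 0.379). Both knockout samples were high, and the samples of either group were also more than 2-fold apart. Lct, which encodes lactase, lay at -5.46 and -5.06 against -2.6 and -1.66 (3.13 ± 0.37, limma adjusted p 0.199). The vesicle-associated genes of neurons Nsg2 (-3.31 and -0.23 against 2.16 and 2.49) and Syt13 (-4.45 and -1.58 against 0.47 and 0.65) were close to equal in the knockout samples and over 2 log2 units apart in the controls. Crmp1 and Gpr162, also known from neurons, differed by 2.43 ± 0.84 and 2.49 ± 0.51. Bdh1, the mitochondrial enzyme that interconverts the ketone bodies, lay at -1.19 and -0.34 against 3.88 and 1.63. Rragd, a component of amino acid signalling to mTORC1, lay at -4.48 and -3.03 against -0.64 and -0.81. Both were higher in both knockout samples, Bdh1 more so in A. Tesc (2.57 ± 0.45), Asb2 (2.9 ± 0.67), Zcchc18 (3.17 ± 1.09) and the centromeric histone gene Cenpa (3.07 ± 0.64) completed the 12 genes.

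**Figure D2:**
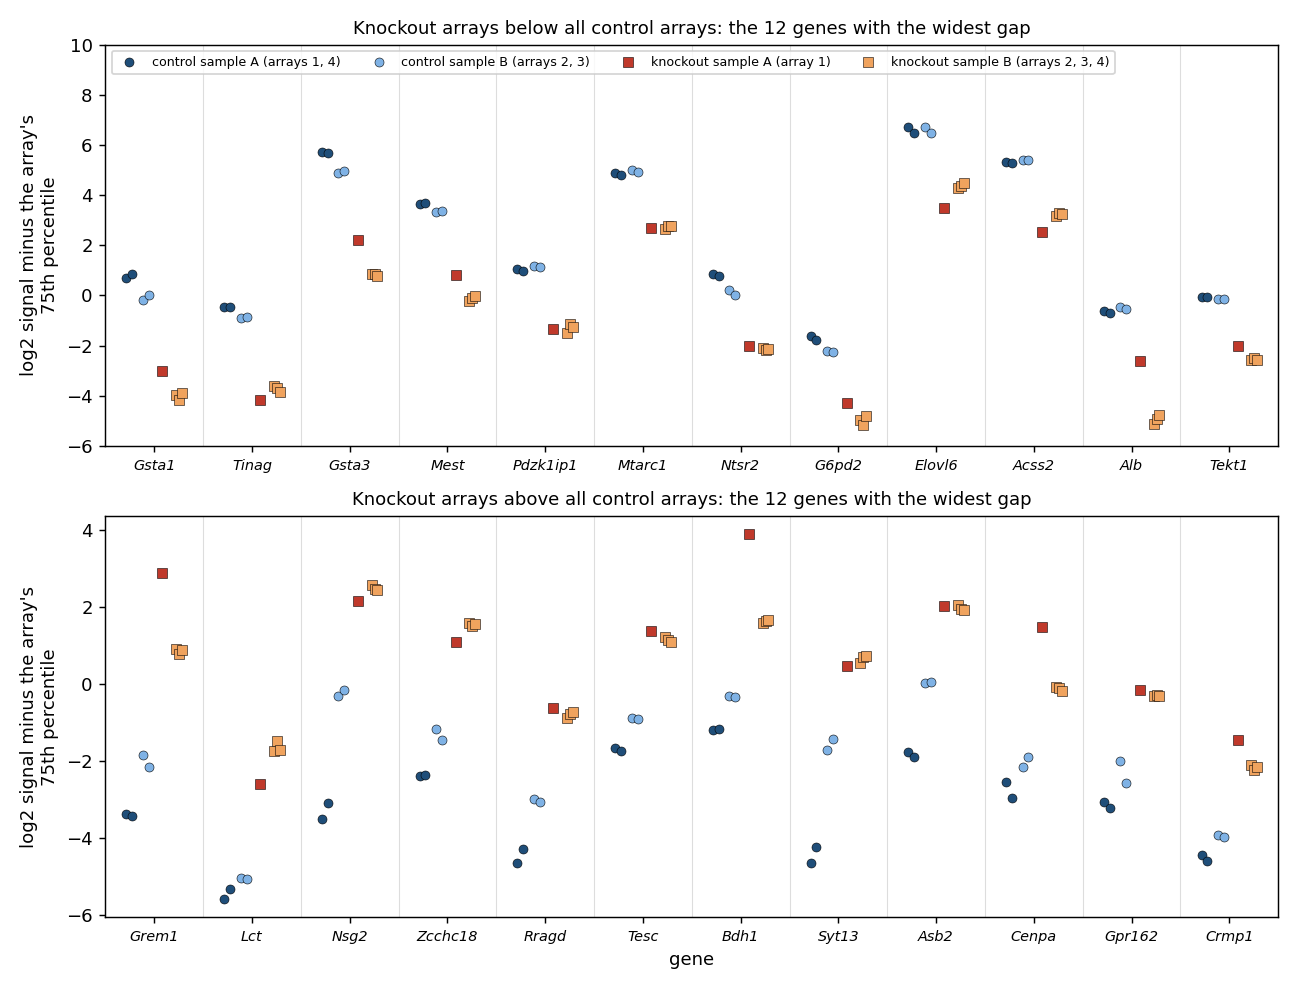
Signal on the 8 white fat arrays, in log2 units with the array's 75th percentile at 0, for the 12 genes with the widest gap below control and the 12 with the widest gap above it; circles are control and squares knockout arrays, coloured by distinct sample. For Mtarc1 the knockout samples nearly coincide (2.71 and 2.73), while for Alb (-2.6 and -4.95) and Bdh1 (3.88 and 1.63) they are more than 2 log2 units apart.

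For some genes only a bound can be given, because none of their probes exceeded background on the arrays of 1 group. This held for 19 genes in control and 30 in knockout. The bound sets the mean of the bright group against a floor for the dim group. On each dim array the floor is the lowest signal called above background, or the probe's own signal where that is higher, and the floors are averaged over the samples. These genes were tested through the bright group alone, so they had to differ and their adjusted p gives no support. Cpne4, which encodes a calcium-dependent membrane-binding protein, was at least 11.96-fold higher in knockout (limma adjusted p 0.24). The neuronal calcium channel gene Cacna1b was at least 6.83-fold higher and Slc35d3 at least 6.33-fold. Speer6-ps1, of a family of near-identical copies, was at least 5.145-fold higher, and which copy gave the signal is uncertain. In the other direction Tex19.1, known from the germ line, was at least 6.09-fold lower (limma adjusted p 0.199). Elovl3, a fatty acid elongase known from brown fat, was at least 4.5-fold lower and the relaxin gene Rln1 at least 3.43-fold.

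Genes of de novo fatty acid synthesis were lower in both knockout samples. This pathway turns glucose carbon into citrate, acetyl-CoA, malonyl-CoA and then palmitate, which is elongated and desaturated. All 23 listed genes were tested, and Elovl3 among them passed the background filter through the control arrays alone. It therefore had to be lower, and its place in the counts that follow gives no support. The mean was lower for 23 of 23, against 53.4% of all genes tested (46.6% were higher). The 4 knockout arrays lay below the 4 control arrays for 20 (19.3% of all genes), and both knockout samples were at least 2-fold lower for 13 (1.56%). The median difference was -1.65, against -0.05 over all genes. It was -1.42 in knockout sample A and -1.76 in knockout sample B, beside control samples at 0.07 and -0.07. Knockout sample A lay below the control arrays for 22 of the 23 genes (38.3% of all genes) and knockout sample B for 21 (42.1%). The median was -1.63 within the shared slide, -1.73 with median scaling and -1.84 in the authors' table.

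At the entry to the pathway, the citrate carrier gene Slc25a1 lay at 5.39 and 5.41 in the control samples and at 3.46 and 3.62 in the knockout samples. Acly, which splits citrate into acetyl-CoA, lay at 5.36 and 5.25 against 1.64 and 3.68, and was thus lower in knockout sample A than in B. Acss2, which makes acetyl-CoA from acetate, lay at 5.29 and 5.41 against 2.52 and 3.24, 5.55-fold lower (-2.47 ± 0.79 SE). Acaca, the carboxylase that makes malonyl-CoA, lay at 4.33 and 4.21 against 2.18 and 2.25, 4.16-fold lower (-2.06 ± 0.71). In each of these 4 genes both knockout samples were low and the groups did not overlap. Fasn, the synthase itself, differed least, at 9.19 and 9.05 against 8.61 and 8.96, and its arrays overlapped.

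Downstream of the synthase, Elovl6, which elongates palmitate, lay at 6.61 and 6.6 in the control samples and at 3.5 and 4.38 in the knockout samples, 6.32-fold lower (-2.66 ± 0.88 SE). The desaturase gene Scd2 lay at 5.82 and 5.6 against 3.31 and 3.94. Its relative Scd1, the main desaturase of adipocytes, lay at 8.39 and 8.36 against 7.96 and 6.76, with the larger difference in knockout sample B. Fads1 and Fads2, which desaturate polyunsaturated fatty acids, differed by -1.7 and -1.34, and Me1, the malic enzyme that supplies NADPH, by -1.99. Among the regulators, Mlxipl, which encodes the glucose-sensing factor ChREBP, lay at 5.5 and 4.77 against 3.71 and 3.27 and had the smallest limma adjusted p of the list, 0.25. Thrsp, which is induced by carbohydrate and thyroid hormone, lay at 7.96 and 7.56 against 5.64 and 5.83. Srebf1, which encodes the sterol-regulated factor SREBP-1, differed less, at 6.23 and 6.19 against 5.78 and 5.35. Limma adjusted p ranged from 0.25 to 0.652 over the list. With the sample as a random block Mlxipl and Pnpla3, a lipase-related gene induced by feeding, passed limma (2 of 23, beside 0.68% of all genes). Without knockout sample A 4 of 23 passed, beside 14.3% of all genes, and without knockout sample B 0, beside 0.762%.

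**Figure D3:**
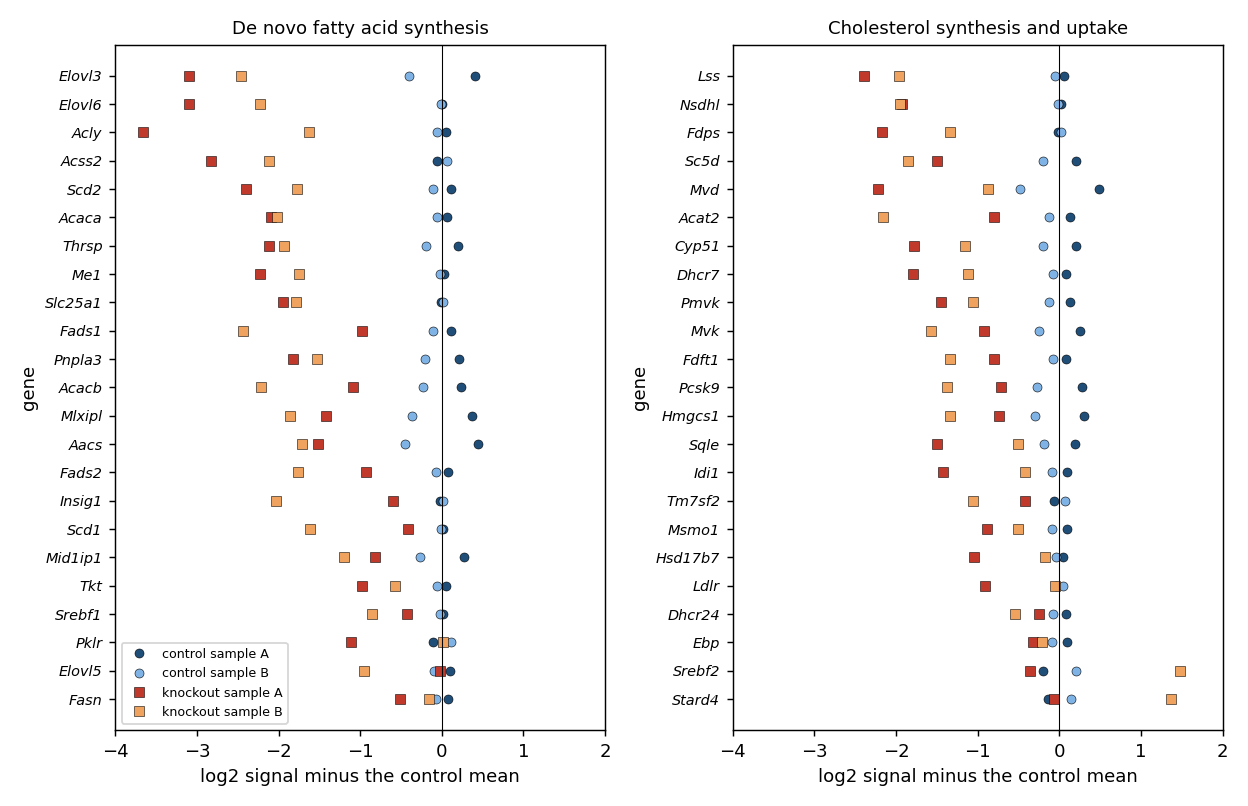
Log2 signal of each sample minus the mean of the control samples for 23 genes of fatty acid synthesis (left) and 23 of the 24 genes of cholesterol synthesis and uptake (right); circles are control and squares knockout samples. The medians over fatty acid synthesis are -1.42 and -1.76 in the knockout samples and those over cholesterol genes -0.92 and -1.06, while Stard4 and Srebf2 lie to the right of the controls in knockout sample B.

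Cholesterol synthesis genes were lower as well. These enzymes carry acetyl-CoA through mevalonate, squalene and lanosterol to cholesterol. Of 24 tested genes 21 had lower means, and 19 had all knockout arrays below the control arrays (19.3% of all genes). Both knockout samples were at least 2-fold lower for 7 (1.56%). The median difference was -1.04, at -0.92 in knockout sample A and -1.06 in B, and -0.99 within the shared slide. Lss, which closes the lanosterol ring, lay at 0.95 and 0.84 in the control samples and at -1.5 and -1.07 in the knockout samples, 4.53-fold lower (-2.18 ± 0.6 SE). Nsdhl, which acts after lanosterol, lay at 1.29 and 1.25 against -0.67 and -0.68 (-1.94 ± 0.55) and was nearly equal in the knockout samples. Sc5d, a late enzyme, lay at 4.83 and 4.42 against 3.13 and 2.77 (-1.67 ± 0.29) and had the smallest limma adjusted p of the list, 0.24. Fdps, which makes farnesyl diphosphate, lay at 3.26 and 3.29 against 1.1 and 1.93. In all 4 genes both knockout samples lay below control. Other members did not follow. Examples are Srebf2, which encodes the factor SREBP-2, at -0.76 and -0.37 against -0.92 and 0.91, and the sterol carrier gene Stard4, at -0.44 and -0.17 against -0.38 and 1.06, which overlapped between the groups and were highest in knockout sample B. With the sample as a random block Sc5d passed limma (1 of 24, beside 0.68% of all genes). The number that passed without knockout sample A was 4 of 24, beside 14.3% of all genes, and without knockout sample B 0, beside 0.762%.

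The windows around the starts of 4 of these genes are shown. These windows were picked for a match, to the sterol response element for Hmgcs1 and to the CCAAT box for the others. All were taken from members whose knockout arrays lay below the control arrays, by the widest gap. They come from RefSeq, assembly GRCm38.p6, and run from 250 bases before to 50 bases after the annotated start, 5′ to 3′ on the strand of the gene. Capitals mark the CCAAT box (CCAAT, or ATTGG where it lies on the other strand) and, in Hmgcs1, the sterol response element TCACNCCAC.
Nsdhl, chrX:72918271-72918570, plus strand: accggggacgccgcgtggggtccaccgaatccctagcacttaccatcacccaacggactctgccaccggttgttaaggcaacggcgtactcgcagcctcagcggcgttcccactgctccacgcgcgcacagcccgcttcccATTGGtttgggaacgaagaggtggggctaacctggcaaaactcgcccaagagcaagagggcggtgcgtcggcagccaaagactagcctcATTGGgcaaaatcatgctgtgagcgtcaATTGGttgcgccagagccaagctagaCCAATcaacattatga
Hmgcs1, chr13:119690101-119690400, plus strand: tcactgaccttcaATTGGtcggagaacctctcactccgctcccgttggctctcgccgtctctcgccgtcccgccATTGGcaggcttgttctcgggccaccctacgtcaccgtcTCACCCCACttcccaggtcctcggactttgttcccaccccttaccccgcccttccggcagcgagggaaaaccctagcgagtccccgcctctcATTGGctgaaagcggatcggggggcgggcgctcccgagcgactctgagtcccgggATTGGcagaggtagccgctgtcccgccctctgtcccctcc
Lss, chr10:76531355-76531654, plus strand: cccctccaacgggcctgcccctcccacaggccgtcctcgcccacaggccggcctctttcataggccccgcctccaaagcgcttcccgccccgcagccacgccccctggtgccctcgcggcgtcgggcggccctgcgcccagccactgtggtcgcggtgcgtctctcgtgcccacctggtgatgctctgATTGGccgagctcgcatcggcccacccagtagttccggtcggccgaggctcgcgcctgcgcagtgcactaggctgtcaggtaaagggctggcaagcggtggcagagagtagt
Sc5d, chr9:42264251-42264550, minus strand: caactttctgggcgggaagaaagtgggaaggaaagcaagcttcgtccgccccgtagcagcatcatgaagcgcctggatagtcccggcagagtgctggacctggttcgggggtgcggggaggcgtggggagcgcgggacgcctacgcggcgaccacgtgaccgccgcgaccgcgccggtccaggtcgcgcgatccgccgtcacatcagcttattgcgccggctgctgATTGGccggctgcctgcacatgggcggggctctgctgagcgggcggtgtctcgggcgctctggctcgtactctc

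The table held a window for 16 of the 24 genes, and 15 of these (93.8%) had a CCAAT box on either strand. The same letters occurred for 42.3% of the 11712 tested genes that have a window, for 13 of 19 fatty acid synthesis genes (68.4%) and for 6 of 19 adipocyte genes (31.6%). The windows of Nsdhl and Hmgcs1 held 4 boxes each and those of Lss and Sc5d 1. The sterol response element, searched on both strands, occurred in Hmgcs1, 137 bases before the start, and among fatty acid synthesis genes in Mlxipl. It was found for 1.44% of tested genes. A match is a run of letters and not a measured site.

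Glycolysis, the pentose phosphate pathway and the steps that bring pyruvate into mitochondria had lower signal in both knockout samples. Of 27 genes tested out of 29 listed, 25 had lower means, 21 had all knockout arrays below the control arrays and 2 had them above, beside 19.3% and 11.4% of all genes. The median was -0.95, at -0.9 in knockout sample A and -1.12 in B, and -0.92 within the shared slide. Mpc1, a subunit of the mitochondrial pyruvate carrier, lay at 6.65 and 6.5 in the control samples and at 5.13 and 4.76 in the knockout samples (-1.63 ± 0.36 SE). Pdhb, of the pyruvate dehydrogenase complex, lay at 5.6 and 5.5 against 3.69 and 3.93 (-1.74 ± 0.36, limma adjusted p 0.261). G6pdx and Pgd, the NADPH-producing enzymes of the pentose phosphate pathway, differed by -1.68 and -1.64. All 4 lay under control in both knockout samples. The 2 exceptions were Aldoc, the brain-type aldolase, at -2.7 and -2.38 against -0.92 and -0.83, and the hexokinase gene Hk1, higher by 0.6. Its relative Hk2 differed by -0.92. The insulin-responsive glucose transporter gene Slc2a4 lay at 6.27 and 6.04 against 5.54 and 4.23, with the larger difference in knockout sample B. With the sample as a random block G6pdx and Pdhb passed limma (2 of 27, beside 0.68% of all genes).

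Of the genes that supply or carry glucocorticoid signals, Hsd11b1 was low in both knockout samples. It lay at 3.91 and 3.81 in the control samples and at 1.43 and 1.91 in the knockout samples, 4.56-fold lower (-2.19 ± 0.5 SE, limma adjusted p 0.341), and passed limma with the sample as a random block (adjusted p 0.0271). H6pd, which supplies its cofactor, lay at 4.53 and 4.42 against 4.65 and 3.46 and overlapped between the groups, as did Nr3c2, which encodes the mineralocorticoid receptor, at -3.93 and -3.86 against -3.24 and -3.71. The chaperone gene Hsp90ab1 differed by -0.18, the co-chaperone gene Fkbp4 by -0.47 and the coactivator gene Ncoa1 by -0.0063. Mc2r and Mrap, which encode the receptor for adrenocorticotropic hormone and its accessory protein, differed by -1.7 ± 0.49 and -1.34 ± 0.44.

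Genes usually listed as induced by glucocorticoid did not share a direction. Of 34 tested genes 20 had lower and 14 higher means, with all knockout arrays below the control arrays in 9 and above them in 2, beside 19.3% and 11.4% of all genes. The 34 include 1 gene that passed the background filter through 1 group alone. The median was -0.25, at 0.02 in knockout sample A and -0.78 in B. Sult1a1, a sulfotransferase, lay at 4.74 and 4.57 in the control samples and at 3.02 and 2.34 in the knockout samples (-1.98 ± 0.3 SE, limma adjusted p 0.199). Dusp1, the phosphatase that restrains MAP kinases, lay at 1.92 and 1.83 against 0.71 and 0.49 (-1.28 ± 0.23, limma adjusted p 0.25). Both were low in both knockout samples and passed limma with the sample as a random block. Angptl4, an inhibitor of lipoprotein lipase, lay at 7.88 and 7.26 against 7.1 and 6.03, and Lpin1, a phosphatidate phosphatase, at 3.79 and 3.81 against 3.21 and 2.47. Tsc22d3, which encodes the leucine zipper protein GILZ, was higher, at 1.61 and 2.1 against 2.27 and 2.99. Fkbp5, which restrains the receptor, lay at -1.91 and 0.13 against -0.46 and 2.16 and the clock gene Per1 at -0.36 and 1.2 against 1.01 and 1.21; like Sgk1 (0.02) they overlapped between the groups, and Fkbp5 was over 2 log2 units apart in the controls themselves.

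A palindromic form of the glucocorticoid response element was found in the windows of 5 of the 31 genes of this list that have one, Fam107a, Map3k6, Mt1, Sgk1 and Txnip (16.1%, against 0.444% of tested genes). It was found in 0 of the 12 genes with the widest gap below control. Mt1, which encodes a metallothionein, lay at 3.38 and 3.26 against 3.1 and 2.48. Its window is shown in the same layout, with the match in capitals. Mt1 had the widest gap among list members that hold the motif and had all knockout arrays below the control arrays.
Mt1, chr8:94178839-94179138, plus strand: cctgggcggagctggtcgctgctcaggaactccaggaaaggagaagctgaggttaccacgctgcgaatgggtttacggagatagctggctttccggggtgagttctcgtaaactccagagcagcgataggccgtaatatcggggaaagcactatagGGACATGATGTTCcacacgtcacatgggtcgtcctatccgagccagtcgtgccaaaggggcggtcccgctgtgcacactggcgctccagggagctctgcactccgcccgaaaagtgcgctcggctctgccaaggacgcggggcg

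The defining genes of adipocytes separated the 2 knockout samples. All 23 tested genes of adipocyte identity had lower means, with a median of -0.9, but the median was -0.16 in knockout sample A and -1.75 in knockout sample B. Knockout sample A lay below the control arrays for 9 of them (38.3% of all genes) and knockout sample B for 22 (42.1%). Adipoq, which encodes adiponectin, lay at 8.23 and 8.04 in the control samples and at 8.09 and 6.62 in the knockout samples. Pparg, the master regulator of adipocytes, lay at 4.01 and 4.15 against 4.27 and 2.33, and Plin1, of the lipid droplet coat, at 6.91 and 6.57 against 6.55 and 5.12. For these 3 genes knockout sample A was close to the controls and knockout sample B was lower. Lep and Retn were low in both. Lep, which encodes leptin, lay at 2.37 and 1.69 against 0.5 and -0.7 (-2.13 ± 0.43 SE, limma adjusted p 0.259). Retn, which encodes resistin, lay at 6.97 and 6.54 against 4.84 and 3.88 (-2.39 ± 0.38, limma adjusted p 0.232). Lep and Retn were among 3 members of the list that passed limma with the sample as a random block (0.68% of all genes did). Of the 23 genes 10 passed without knockout sample A, beside 14.3% of all genes, and 0 without knockout sample B, beside 0.762%.

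Set against the adipocyte list, the lipid synthesis lists stood differently in the 2 knockout samples. The median difference from control of fatty acid synthesis genes minus that of the adipocyte genes was -1.26 in knockout sample A and -0.003 in knockout sample B. For cholesterol genes these values were -0.76 and 0.69, and for glycolysis -0.74 and 0.63. Relative to control, the lipid synthesis and glycolysis genes thus fell further than adipocyte genes in sample A, and as far or less far in sample B. The summed signal of the adipocyte genes, with the 75th percentile of the array as 100, was 181600 to 235000 on the control arrays, 192700 in knockout sample A and 101500 to 104500 in knockout sample B. The part of this lower adipocyte signal in the other values of knockout sample B was not tested.

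**Figure D4:**
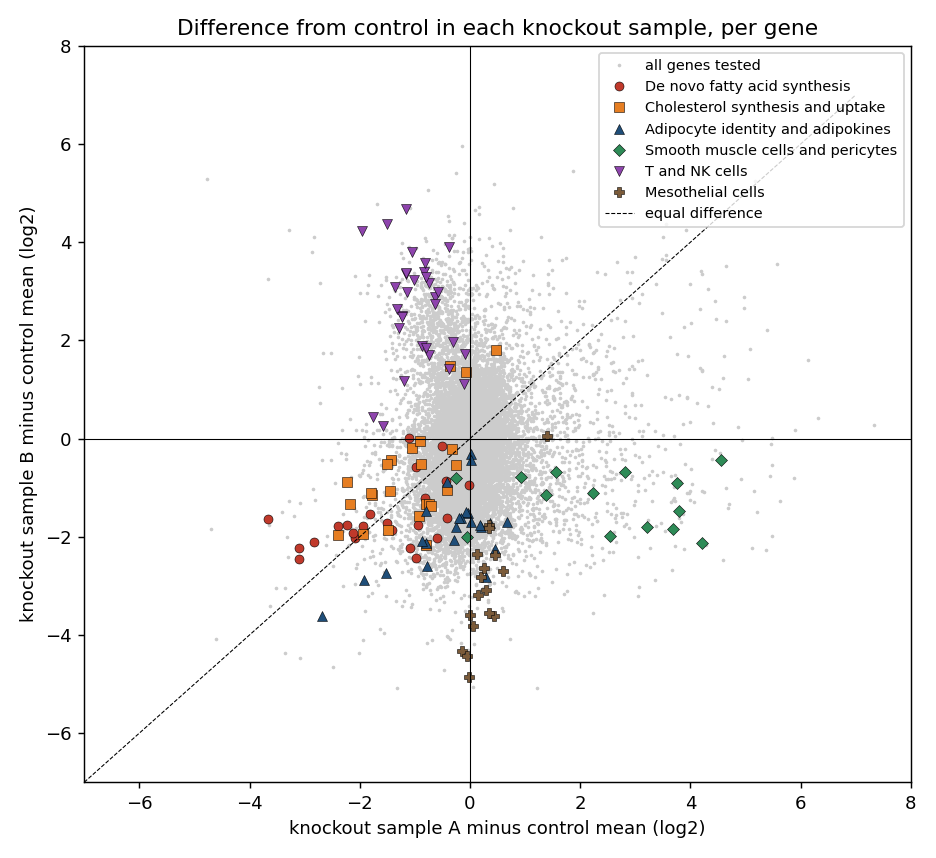
Each point is a gene, with its log2 difference from the control mean in knockout sample A on the horizontal axis and in knockout sample B on the vertical axis; coloured symbols mark 6 gene lists and the dashed line equal differences. Fatty acid synthesis genes lie in the lower left (medians -1.42 and -1.76), mesothelial genes low on the vertical axis only (0.25 and -3.08), T and NK cell genes in the upper left (-1.02 and 2.88) and smooth muscle genes in the lower right (2.69 and -1.13).

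Other metabolic groups of adipocytes were lower mainly in knockout sample B. The 22 genes of fatty acid uptake and triglyceride synthesis had medians of -0.33 and -1.68 in A and B, and those of lipolysis and the lipid droplet -0.19 and -1.62. Fatty acid oxidation genes had medians of -0.18 and -1.41, branched-chain amino acid breakdown genes -0.24 and -1.59 and respiratory chain genes -0.22 and -0.7. Among the members that were low in both samples were Mogat2 and Dgat2, which assemble acylglycerols, and Plin2 and G0s2, of the lipid droplet. Mogat2 lay at 3.72 and 3.62 in the control samples and at 1.6 and 1.85 in the knockout samples (-1.95 ± 0.27 SE, limma adjusted p 0.199) and Dgat2 at 8.34 and 8.15 against 7.31 and 7.15. Plin2, a droplet coat protein, lay at 7.23 and 6.89 against 5.49 and 5.77 and G0s2, the inhibitor of adipose triglyceride lipase, at 4.84 and 4.22 against 3.3 and 2.38. By contrast Lpl, which releases fatty acids from lipoproteins, lay at 7.65 and 7.39 against 7.19 and 5.34, with most of its difference in knockout sample B.

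Several detoxifying and secreted genes were low in both knockout samples, while the medians of their lists were mainly low in knockout sample B. The medians of glutathione transferases and oxidant defence were -0.21 and -1.26, those of cytochrome P450 and related enzymes -0.21 and -1.77 and those of matrix genes -0.25 and -1.63. Secreted vascular and growth factor genes had medians of -0.27 and -1.44. Knockout sample A lay below the control arrays for 16 of 31 glutathione and oxidant defence genes and 15 of 33 P450 and related genes (38.3% of all genes), and knockout sample B for 26 and 27 (42.1%). The 31 and 33 include 1 and 2 genes that passed the background filter through 1 group alone. The cytochrome P450 gene Cyp2f2 lay at 0.19 and -1.43 in the control samples and at -3.11 and -5.28 in the knockout samples. It passed that filter through the control arrays alone, where it is high, so its difference gives no support. The aldehyde dehydrogenase gene Aldh1a7 lay at 4.83 and 4.81 against 3.12 and 1.93, low in both knockout samples and lower in B. Of 32 liver-type and acute phase genes 23 were tested, and 7 of these passed the background filter through 1 group alone, so no count over them is used. Lbp, which binds lipopolysaccharide, lay at 2.13 and 2.25 against 0.46 and -0.35 (-2.13 ± 0.45) and Serpina3n, a protease inhibitor, at 1.18 and 0.83 against -1.16 and -0.82 (-1.99 ± 0.47). The haptoglobin gene Hp lay at 6.52 and 6.2 against 4.68 and 3.38. These 3 were low in both knockout samples. Timp4, an inhibitor of matrix metalloproteinases, differed by -3.03 ± 0.66, and Tnc, which encodes tenascin C, by 2.61 ± 0.55 in the other direction. The angiotensinogen gene Agt lay at 3.67 and 3.06 against 2.3 and -0.05 and the peptidase gene Enpep at 4.45 and 4.44 against 3.28 and 2.58. The immediate early genes Fos, Ccn1 and Maff differed by -1.75 ± 0.46, -1.71 ± 0.35 and -1.27 ± 0.28, beside a median of -0.08 over their list.

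Knockout sample B had the highest lymphoid signal of the white samples. The median difference of 31 T and NK cell genes from the control mean was 2.88 in knockout sample B and -1.02 in knockout sample A, beside -0.87 and 0.87 in the control samples. Cd8a, the T cell coreceptor, lay at -2.69 and 0.92 in the control samples and at -2.39 and 3.48 in the knockout samples. Ccr7, which guides lymphocytes to lymph nodes, lay at -2.47 and 1.35 against -2.53 and 3.67. Knockout B was thus highest and control B next. B cell and plasma cell genes had medians of -0.13 and 3.26 in the knockout samples and -1.28 and 1.28 in the controls, and lymph node stroma genes -0.41 and 3.09 and -1.0 and 1.0. Glycam1, made by the high endothelium of lymph nodes, lay at -2.19 and 3.93 against -3.9 and 6.17. Cell cycle genes had medians of -0.53 and 2.53 and those of dendritic cells and MHC class II -1.12 and 1.75. The summed signal of the T and NK cell genes was 1037 to 3736 on the control arrays, 905.6 in knockout sample A and 18280 to 18510 in knockout sample B. The 4 knockout arrays lay beyond control for 0 of the 31 T and NK cell genes, beside 30.7% of all genes. Of the 24 B and plasma cell genes, 2 passed the background filter through 1 group alone, so no count over them is used. The plasma cell genes Mzb1 (-1.3 and 1.29 against 1.73 and 3.67), Jchain (2.15 and 3.66 against 3.99 and 5.48) and Derl3 (-2.1 and -0.66 against 0.22 and 1.23) were high in both knockout samples. The part of lymphoid RNA in the lower adipocyte signal of knockout sample B was not tested.

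Knockout sample A had the highest smooth muscle signal. The median difference of 14 smooth muscle and pericyte genes was 2.69 in knockout sample A and -1.13 in knockout sample B, beside 0.04 and -0.04 in the controls. Cnn1, which encodes calponin, lay at 3.37 and 3.26 in the control samples and at 7.52 and 1.19 in the knockout samples, and the smooth muscle myosin gene Myh11 at 2.69 and 2.77 against 6.41 and 0.89. Knockout sample A lay above the control arrays for 12 of the 14 genes (28.8% of all genes) and knockout sample B below them for 14 (42.1%). The summed signal of the list was 14400 to 16560 on the control arrays, 100600 in knockout sample A and 5734 to 6021 in knockout sample B. Neuronal genes were of more than 1 kind. Of the 28 tested, 12 passed the background filter through 1 group alone, so no count over them is used. Gal, which encodes the neuropeptide galanin, lay at -1.25 and -1.19 against 5.1 and -0.8. Pcp4, a calmodulin regulator, lay at -2.83 and -2.67 against 4.58 and -2.48. Elavl4, which encodes a neuronal RNA-binding protein, lay at -3.87 and -4.53 against 1.29 and -4.74. These 3 were high in knockout sample A alone, whereas the kinase gene Camk2a (-4.22 and -3.71 against -2.01 and -1.76) was high in both knockout samples. The part of smooth muscle or nerve RNA in the values of knockout sample A was not tested.

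**Figure D5:**
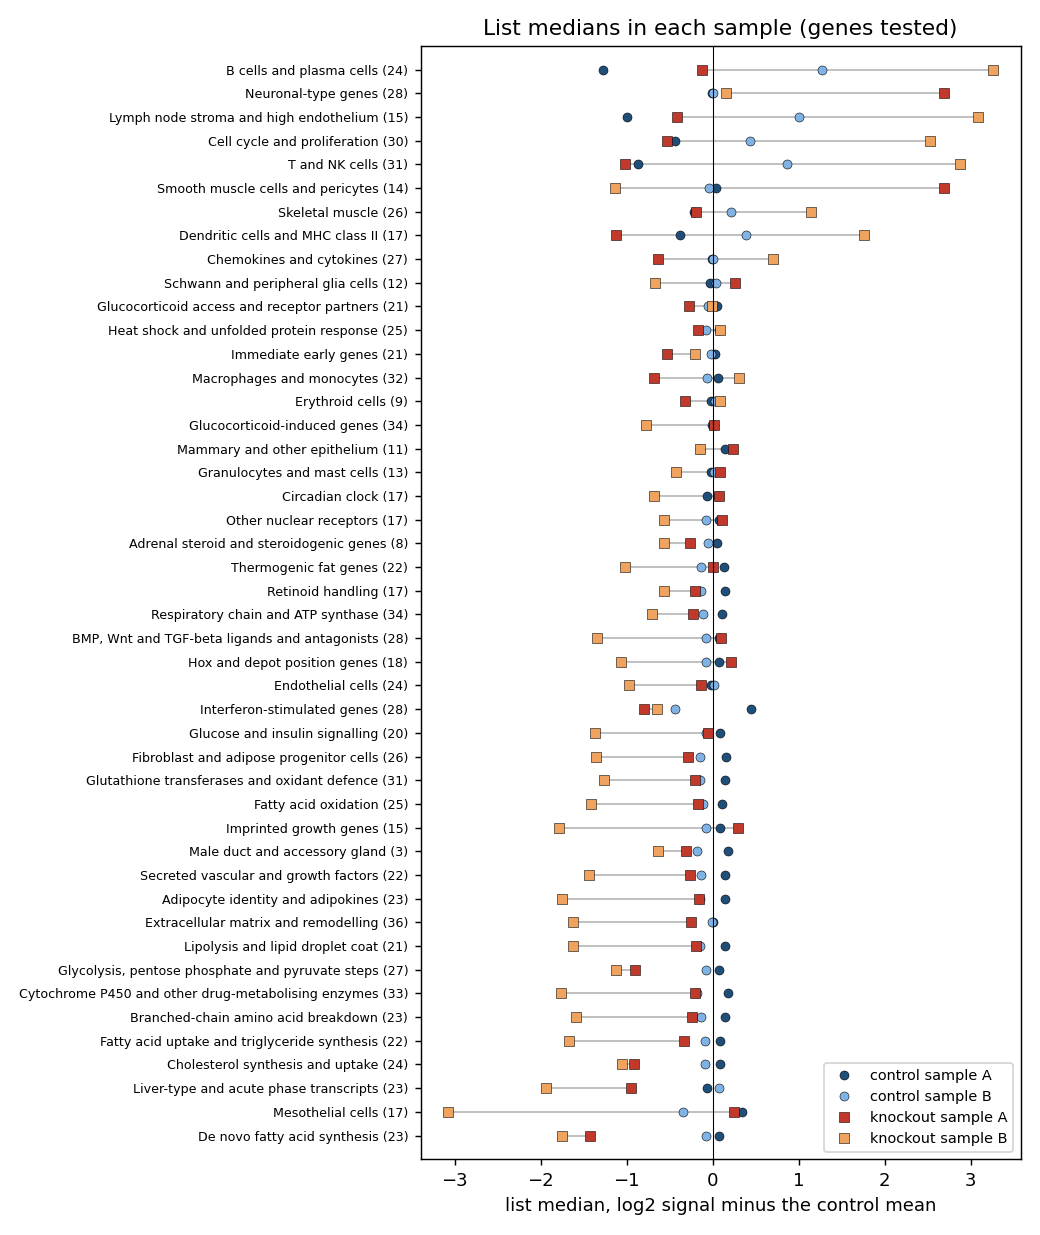
For each gene list, with the number of genes tested in brackets, the median of the log2 signal minus the control mean in each sample; circles are control and squares knockout samples, and a line joins the knockout samples. The knockout samples lie close together and below both controls for fatty acid synthesis (-1.42 and -1.76), and on opposite sides of the control mean for smooth muscle (2.69 and -1.13) and for T and NK cells (-1.02 and 2.88).

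Mesothelial genes also differed between the knockout samples. Mesothelium lines the body cavities and covers the fat depots inside them. The median difference was 0.25 in knockout sample A and -3.08 in B, beside 0.34 and -0.34 in the controls. Upk3b lay at 2.19 and 1.24 in the control samples and at 1.67 and -2.72 in the knockout samples and Msln, which encodes mesothelin, at 3.53 and 2.87 against 3.63 and -0.42. Knockout sample A was thus near the controls and knockout sample B below them. The 26 skeletal muscle genes had medians of -0.19 and 1.15, and lay above the control arrays in knockout sample A for 8 (28.8% of all genes) and in knockout sample B for 17 (35.4%). Of the members, Ckm (-5.02 and -4.13 against 0.47 and -3.35) and Myh7 (-4.96 and -3.82 against 0.99 and -2.18) were highest in knockout sample A, unlike the list's median. Endothelial genes had medians of -0.14 and -0.98 and fibroblast and progenitor genes -0.29 and -1.36. The 32 macrophage genes had medians of -0.68 and 0.3, and 19 of them lay on opposite sides of the control mean in the knockout samples (45.6% of all genes). In knockout sample B 16 lay above the control arrays (35.4%) and 14 below them (42.1%). In knockout sample A 3 lay above (28.8%) and 24 below (38.3%). The 32 include 1 gene that passed the background filter through 1 group alone. Retnla, a secreted product of alternatively activated macrophages, lay at 5.43 and 5.33 against 4.54 and 3.14. The chemokine receptor gene Ccr2 lay at 0.18 and 0.04 against -0.8 and -0.76. Both were low in both knockout samples. Interferon-stimulated genes had medians of -0.8 and -0.65 in the knockout samples beside 0.44 and -0.44 in the controls, which themselves stood apart. Ucp1, the uncoupling protein of brown fat, lay at -1.68 and -1.88 against -2.52 and -0.99. The adipocyte genes Adipoq and Fabp4 were bright in all 4 samples, with Fabp4 at 9.01 and 8.95 against 8.99 and 8.55.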

How the data were processed

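RNA of white fat was hybridised to 1-colour (Cy3) Agilent mouse arrays, 4 per group. Per the file headers, the authors' scanner software was Agilent Feature Extraction 12.0.0.7, whose processed signal, background-subtracted and spatially detrended, is the intensity used. The authors' deposited series table holds the same intensities averaged per probe, on a linear scale and not scaled between arrays. Annotation was that of the array design.

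Control spots were left out. Spots flagged as outliers were left out only where the probe had another, unflagged spot, and a probe with every spot flagged kept them. Intensities were taken as log2 minus the 75th percentile of each array, repeat arrays were averaged as described, and a gene was represented by its brightest tested probe. limma 3.58.1 (R 4.3.3) fitted the mean of 4 groups over 9 distinct samples, with 5 residual degrees of freedom, and p-values were adjusted over 14697 genes at a threshold of 0.05. On simulated data with the real spread, pooled over the 4 groups, limma called 0% of 200 genes changed by 1 log2 unit, 50% changed by 2 and 83% changed by 4. The simulation gave all groups the same spread, whereas the white knockout samples differed more from one another than the white control samples did.

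Members, tests and gene lists were chosen with earlier results of these data known. Genes named were Nr3c1, the 5 smallest p, the 12 widest gaps each way, the 6 largest bounds each way, the 8 largest differences between knockout samples each way and up to 4 per list; other genes are list members picked by function with values known, and the values of 1 cholesterol gene are not reported here. Alternatives changed the background correction, scaling, filter, probe choice, blocks and samples. The files hold no mean signal, so normexp used the median signals with an offset of 50.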

Additional observations from a re-analysis of the deposited data

Results flagged for a closer look

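Of 6054 tested probes without a gene name in the array annotation, 1 passed limma (adjusted p 0.0378), a set of probes that the comparisons of named genes do not use. Probe A_52_P793889 was higher in knockout by 2.42 on the log2 scale. It lay at -6.95 and -6.79 in the control samples, where 0 of 4 arrays were well above background, and at -4.41 and -4.49 in the knockout samples, where 4 of 4 were. It was tested through the knockout arrays alone, where it is high, so it had to differ and its p gives no support. The measured difference against a dim control group is not a bound. No group was searched for single outlying samples, since each white group holds 2 distinct samples.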

How the results depend on the processing

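With every array taken as a separate sample 7016 genes passed limma, with the slide as a block 253 and with the sample as a random block 100 (within-sample correlation 0.933); 0 passed with white samples only, normexp, median scaling, quantile normalization, the authors' table, no filter, a filter on all 8 white arrays, each probe on its own, or within the shared slide, as in the result given (1572 at an unadjusted p under 0.05). Leaving out replicates gave 0 to 2102 genes, with 2102 without knockout array 1 and 112 without knockout arrays 2, 3 and 4. Genes whose arrays lay beyond control numbered 8711 probes when each probe was counted, since more items were tested, and 4601 to 11393 with replicates left out, where fewer arrays make separation easier (11393 without knockout array 1, 9856 without knockout arrays 2, 3 and 4, 7529 without control arrays 2 and 3). Nr3c1 differed by -0.95 with arrays separate and by -0.98 with the slide as a block, and passed in both, as it did without knockout array 1. It ranged from -0.75 to -1.04 over left-out replicates. Whether replicate numbers pair the samples could not be decided, because repeat arrays leave 2 distinct samples per group. The deviations of same-numbered arrays had correlations of 0.476, 0.33, 0.371 and -0.535. Their signs follow from which arrays share a sample. With the replicate number as a block on separate arrays 4275 genes passed and Nr3c1 differed by -0.95 and passed. Except where given, causes were not tested. The median difference of all genes, -0.05 in the result given, was 0.0039 with normexp and 0.024 with no filter. Of the genes that passed without knockout array 1, 648 were higher and 1454 lower, and without knockout arrays 2, 3 and 4, 101 and 11. List medians that rest on 1 knockout sample turn when it is left out: smooth muscle is 2.69 in sample A alone and -1.13 in B alone, T and NK cells -1.02 and 2.88. The chemokine list's median, 0.13, was -0.06 in the authors' table. Signal over background limits the dim genes, for which bounds are given, and 2 samples per group limit all tests.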
